A study of Mus musculus with 6 samples.

Results

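The S100 calcium-binding protein family was described here by 10 genes, chosen by symbol from the genes listed for a mouse keratinocyte study: S100a1, S100a3, S100a4, S100a6, S100a8, S100a9, S100a10, S100a11, S100a14 and S100a16. They were 10 of the 24982 genes listed and 10 of the 17 S100 genes among them. The other 7 S100 genes are given after the members.

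The study cultured keratinocytes from the skin of newborn C57BL/6 mice. KSFM-Ca2+ cells were derived and kept in a serum-free keratinocyte medium with little calcium (KSFM-Ca2+), without further treatment. DKSFM cells descend from KSFM-Ca2+ cells: they were moved to a defined keratinocyte serum-free medium with more calcium (DKSFM), in which many cells were lost and the survivors grew out as an adapted line, also without further treatment. RNA from 3 KSFM-Ca2+ and 3 DKSFM samples was sequenced, and the comparison asks how the adapted line differs from the line it came from. Medium, adaptation and the survival of some cells cannot be told apart in this design, and neither can fewer cells of a kind and less RNA per cell. The sources used here do not say what separated the replicates of a line, so the p-values measure only the spread between these samples, which may be technical.

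S100 proteins are small proteins with a pair of EF-hand loops that bind calcium. Most work as dimers, which change shape with calcium and then dock onto targets such as annexins, the cytoskeleton and cell surface receptors. Most of their genes lie side by side, next to the genes of the epidermal differentiation complex, and the epidermis is a main site of their expression, S100a8 and S100a9 above all in inflamed, wounded or proliferating skin.

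The value given for each gene and library is the mean number of reads over each base of the gene, called coverage. Because it is per base, levels of different genes can be set side by side. The coverage listed over all genes summed to 1601676, 1238411 and 1057750 in KSFM-Ca2+ replicates 1 to 3, and to 1174348, 1239438 and 1170675 in DKSFM replicates 1 to 3. Levels below are normalized coverage, scaled by a trimmed mean of the log ratios between libraries, which centres the bulk of these ratios near 0. A log2 fold change is DKSFM over KSFM-Ca2+ on log2(normalized coverage + 0.1), a scale that understates the change of low genes.

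Both lines carried keratinocyte markers at high levels. Krt14, the keratin of basal keratinocytes, stood at 11746, 12195 and 11984 in KSFM-Ca2+ replicates 1 to 3 and at 30404, 27980 and 30773 in DKSFM replicates 1 to 3. Trp63, the transcription factor of the basal layer, was between 390.4 and 457 in all 6 libraries. All 7 keratinocyte markers were tested. At an adjusted p under 0.01, 4 rose and 2 fell, beside 35.5% and 37.1% of all genes tested. Of the rises, 2 passed 2-fold, beside 13.2% of all genes tested: those of Krt14 and Krt5, with log2 fold changes of 1.31 and 1.25. One fall passed 2-fold, beside 10.5%. It was that of the adhesion molecule Epcam, with a log2 fold change of -1.50 (SE 0.028; limma adjusted p = 2.81e-09). Myeloid cells are a strong source of S100a8 and S100a9 in skin. All 12 myeloid markers were below the filter for testing, and 3 of them (Adgre1, Mpo and Camp) were listed at 0 in every library. Their sum was 0.686, 0.297 and 0.826 in KSFM-Ca2+ and 0.318, 0.899 and 0.424 in DKSFM, with Ltf, the granule protein lactoferrin, as the most abundant. Of 7 fibroblast markers, 6 were listed at 0 throughout, among them Col1a1, Col1a2 and Dcn, and the only one above 0 was Pdgfra, at 1.14, 0.890 and 1.30 in KSFM-Ca2+ and 2.34, 2.10 and 2.23 in DKSFM. All 7 melanocyte and Schwann cell markers were below the filter, with Dct and Tyr at 0 throughout. Their sum was 0.915, 0.989 and 1.30 in KSFM-Ca2+ and 0.743, 0.700 and 0.530 in DKSFM, and Pmel, a melanosome protein, was the most abundant. Of 5 endothelial markers, Cdh5 and Emcn were at 0 throughout, while Pecam1 was at 2.59, 2.67 and 3.07 in KSFM-Ca2+ and 7.86, 7.99 and 6.89 in DKSFM, and led a sum of 2.82, 3.16 and 3.30 against 8.28, 8.29 and 7.42.

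Of the 10 members, 9 reached the level needed for testing, a normalized coverage of 0.5 in at least 3 libraries, and these 9 were at or above 0.5 in all 6. By limma with Benjamini-Hochberg adjustment over 12409 genes, 6 of the 9 rose in DKSFM at an adjusted p under 0.01, beside 35.5% of all genes tested, and 2 fell, beside 37.1%. A change of at least 2-fold as well was met by 1 member that rose, S100a3, beside 13.2% of all genes, and by 2 that fell, S100a8 and S100a9, beside 10.5%. The libraries of the lines did not overlap for any of the 9, beside 83.3% of all genes, so that the absence of overlap was common in this comparison. The median log2 fold change of the 9 was 0.42, and that of all genes tested was -0.0012. The members divided into 5 very abundant genes with moderate rises, a pair that fell steeply, and a pair at low levels.

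**Figure D1:**
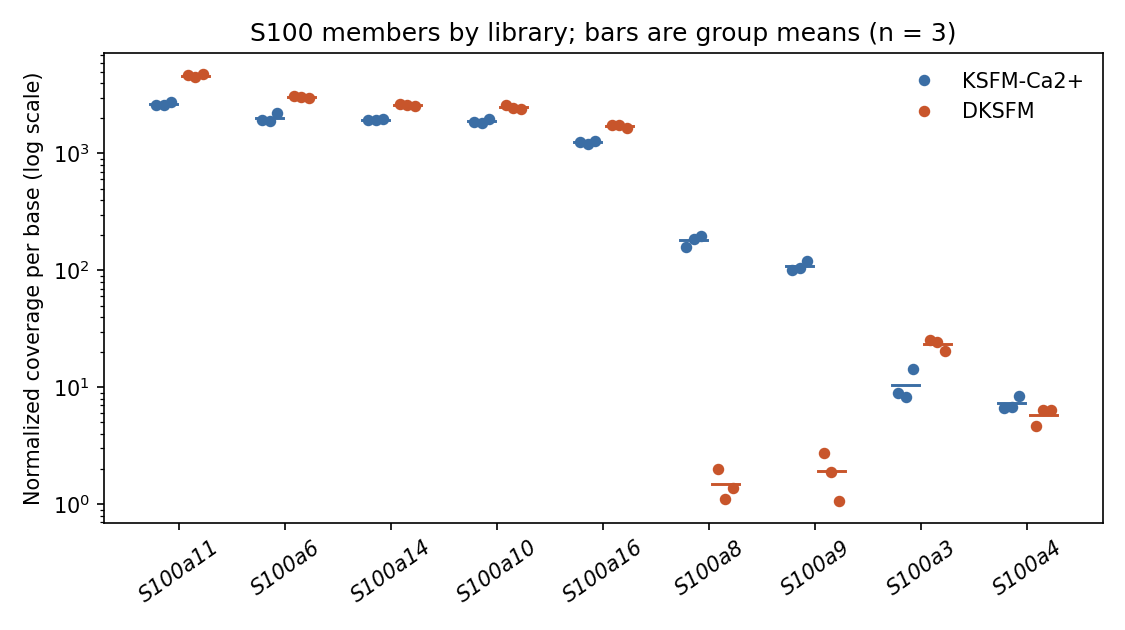
Normalized coverage per base (log scale) of the 9 tested S100 members in each library. Points are libraries, blue for KSFM-Ca2+ and orange for DKSFM, and bars are group means (n = 3). S100a8 and S100a9 lie above 100 in KSFM-Ca2+ and below 3 in DKSFM, and the 5 most abundant members lie higher in DKSFM. S100a1, listed at 0 in all 6 libraries, is not drawn.

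S100a8 and S100a9 form calprotectin, a secreted heterodimer that binds calcium and metal ions and acts as an alarm signal. S100a8 had a normalized coverage of 158, 186 and 199 in KSFM-Ca2+ replicates 1 to 3 and of 2.02, 1.10 and 1.38 in DKSFM replicates 1 to 3. All 3 KSFM-Ca2+ libraries were high and all 3 DKSFM libraries low in the tested range. The log2 fold change was -6.86 (95% interval -7.30 to -6.41; limma adjusted p = 1.87e-08). S100a9 was at 100.1, 104.7 and 120.7 in KSFM-Ca2+ and at 2.76, 1.90 and 1.06 in DKSFM. Its libraries split in the same way, without overlap. S100a9 had a log2 fold change of -5.85 (95% interval -6.50 to -5.20; limma adjusted p = 3.39e-07). In KSFM-Ca2+, the mean level of S100a8 lay above that of 89.1% of the genes tested, and in DKSFM above 10.3%. For S100a9 these shares were 81.5% and 12.1%. At transcript lengths of 486 and 515.5 bases and reads of 85 bases, the DKSFM values rest on about 6 to 11 reads for S100a8 and 6 to 16 for S100a9, against at least 962 and 620 in each KSFM-Ca2+ library, so the size of both falls is known less well than their direction.

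The balance between both subunits was compared within each library, where scaling plays no part. The ratio of S100a8 to S100a9 coverage was 1.58, 1.77 and 1.65 in KSFM-Ca2+ and 0.731, 0.579 and 1.30 in DKSFM. S100a8 was the higher of both in every KSFM-Ca2+ library and in 1 of the 3 DKSFM libraries. The DKSFM ratios rest on about 11, 6 and 7 reads of S100a8 and 16, 12 and 6 of S100a9. The order within a DKSFM library, and the size of the change, are thus uncertain. The mean log2 ratio changed by -1.02, with an SD of 0.085 in KSFM-Ca2+ and 0.60 in DKSFM. The two-sided exact permutation p was 0.1, the smallest that 3 against 3 libraries can give, and it was 0.1 after adjustment over the 3 ratios compared.

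S100a8 and S100a9 lie within 27 kb of each other on chromosome 3 and are read from opposite strands. Since both fell together, the 300 bases around their annotated starts are shown, from 250 bases before to 50 after, taken from RefSeq on GRCm38.p6. A window was found for 8 of the 10 members, in 12 versions, and for S100a10 and S100a14 none. The S100a8 window is chr3:90668821-90669120 on the plus strand and that of S100a9 is chr3:90695672-90695971 on the minus strand. Capitals mark matches, on either strand, to TATAAA (the core of a TATA box), TGANTCA (the core bound by AP-1 factors) and TTGCNNAA (part of the sequence that C/EBP factors bind).
S100a8 promoter: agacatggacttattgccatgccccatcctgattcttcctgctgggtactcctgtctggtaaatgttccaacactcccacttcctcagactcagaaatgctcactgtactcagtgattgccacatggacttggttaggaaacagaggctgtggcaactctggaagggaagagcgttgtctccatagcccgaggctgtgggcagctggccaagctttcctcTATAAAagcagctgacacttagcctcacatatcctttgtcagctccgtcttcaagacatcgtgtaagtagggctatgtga
S100a9 promoter: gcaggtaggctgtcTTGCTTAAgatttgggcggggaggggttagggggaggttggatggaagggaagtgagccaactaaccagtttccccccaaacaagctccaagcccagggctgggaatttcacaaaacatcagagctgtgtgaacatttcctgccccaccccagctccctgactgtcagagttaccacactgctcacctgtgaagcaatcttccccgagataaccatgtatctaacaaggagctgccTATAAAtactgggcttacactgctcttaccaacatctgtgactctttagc
TATAAA begins 30 bases before the annotated start of S100a8. In S100a9 it begins at the first base of the annotated transcript. The S100a9 window also holds TTGCNNAA once, 236 bases before the start. TATAAA occurred in 13.6% of all 32851 promoter windows of this length and TTGCNNAA in 10.8%. Among the 12 windows of the members, 4 held TATAAA (S100a8, S100a9, S100a4 and 1 of S100a3).

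Next come the partners of the annexins, proteins that bind membranes when calcium is present. S100a11, which binds annexin A1 and was the most abundant member in both lines, had a normalized coverage of 2624, 2589 and 2767 in KSFM-Ca2+ and of 4694, 4481 and 4754 in DKSFM. Every DKSFM library was above every KSFM-Ca2+ library by far more than the spread within a line. S100a11 rose with a log2 fold change of 0.80 (95% interval 0.72 to 0.89; limma adjusted p = 2.55e-07), which is less than 2-fold. A processed pseudogene, S100a11-ps, is annotated in GENCODE, and reads shared with it could not be told apart here. S100a10, which forms a tetramer with annexin A2 at the plasma membrane, was at 1855, 1819 and 1977 in KSFM-Ca2+ and at 2581, 2474 and 2415 in DKSFM. All DKSFM values were again the higher ones, with a log2 fold change of 0.40 (95% interval 0.31 to 0.50; limma adjusted p = 2.63e-05).

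The promoter window of S100a11, chr3:93520246-93520545 on the plus strand, is shown as that of the most abundant member that rose, for contrast with the pair above and with the same motifs in capitals.
S100a11 promoter: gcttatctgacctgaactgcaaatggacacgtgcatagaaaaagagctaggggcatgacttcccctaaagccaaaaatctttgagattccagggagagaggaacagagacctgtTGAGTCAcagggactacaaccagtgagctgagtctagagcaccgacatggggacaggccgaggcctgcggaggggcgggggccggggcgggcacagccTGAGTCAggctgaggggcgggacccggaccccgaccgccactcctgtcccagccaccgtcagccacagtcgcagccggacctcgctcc
It holds TGANTCA at 2 places, 136 and 38 bases before the start, and neither of the other motifs. TGANTCA occurred in 7.81% of all promoter windows and in 2 of the 12 windows of the members, the other being 1 of S100a16. A match in these letters is a description of the sequence and no evidence of a bound factor.

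The annexin partners were themselves abundant, and the ratio of each S100 subunit to its partner was higher in every DKSFM library than in any KSFM-Ca2+ library. The ratio of S100a11 to Anxa1 coverage was 0.674, 0.685 and 0.655 in KSFM-Ca2+ and 0.992, 0.920 and 1.01 in DKSFM. Per base, S100a11 thus stood clearly below Anxa1 in KSFM-Ca2+ and near it in DKSFM. The mean log2 ratio changed by 0.53 (SD 0.033 and 0.070; two-sided exact permutation p = 0.1, adjusted 0.1). For S100a10 to Anxa2 the ratio was 0.889, 0.861 and 0.887 in KSFM-Ca2+ and 1.06, 1.09 and 0.985 in DKSFM, without overlap. Its mean log2 ratio changed by 0.25 (SD 0.025 and 0.074; two-sided exact permutation p = 0.1, adjusted 0.1). Neither of these tests could reach a smaller p with 3 libraries a line.

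The remaining abundant members were S100a6, S100a14 and S100a16. S100a6, or calcyclin, which binds the ubiquitin ligase adaptor Cacybp and several annexins, was at 1934, 1882 and 2206 in KSFM-Ca2+ and at 3080, 3034 and 3007 in DKSFM. The lines were well apart, and KSFM-Ca2+ replicate 3 stood above the other KSFM-Ca2+ libraries. The log2 fold change was 0.60 (95% interval 0.47 to 0.73; limma adjusted p = 1.78e-05). S100a14, an epithelial member with a degenerate calcium loop, was at 1926, 1916 and 1988 in KSFM-Ca2+ and at 2627, 2623 and 2573 in DKSFM. The libraries of each line were within a narrow band and the bands were apart, with a log2 fold change of 0.42 (95% interval 0.36 to 0.49; limma adjusted p = 1.64e-06). S100a16, the closest neighbour of S100a14 among the members, was at 1244, 1212 and 1271 in KSFM-Ca2+ and at 1754, 1758 and 1665 in DKSFM. It too was higher in each DKSFM library, with a log2 fold change of 0.47 (95% interval 0.40 to 0.55; limma adjusted p = 2.59e-06).

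S100a3, a protein known from the hair cuticle, was at 8.99, 8.31 and 14.3 in KSFM-Ca2+ and at 25.4, 24.5 and 20.4 in DKSFM. All DKSFM libraries were higher, but KSFM-Ca2+ replicate 3 stood well above the other libraries of its line. The log2 fold change was 1.18 (95% interval 0.74 to 1.63; limma adjusted p = 5.41e-04), the only rise of a member past 2-fold. Without KSFM-Ca2+ replicate 3 it was 1.42, and with that library as the only one of its line it was 0.70, under 2-fold (limma adjusted p = 0.00217; between 2.47e-05 and 0.00509 over the 17 alternatives). The RefSeq model of S100a3 overlaps that of S100a2 by 1262 bases, so reads of both genes may be mixed.

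S100a4, which binds non-muscle myosin and is high in motile cells, was at 6.71, 6.72 and 8.38 in KSFM-Ca2+ and at 4.67, 6.40 and 6.36 in DKSFM. The lowest KSFM-Ca2+ library was just above the highest DKSFM library. The log2 fold change of -0.33 (95% interval -0.66 to 0.01) did not pass the test (limma adjusted p = 0.0679). S100a1, a member known from heart and skeletal muscle, was listed at 0 in all 6 libraries, where the smallest step of the values, 0.1, corresponds to about 0.738 reads over its 627-base transcript.

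The other S100 genes were close to the floor. S100a2, also known from epithelia, was at 0.457, 0.692 and 1.18 in KSFM-Ca2+ and at 2.65, 3.10 and 1.59 in DKSFM. The lines did not overlap, with a log2 fold change of 1.57 (SE 0.34; limma adjusted p = 0.00297), but the values rest on about 2 to 11 reads a library. S100a13 was between 0.297 and 0.699 in all libraries and S100z between 0 and 1.48, and neither passed the test (limma adjusted p = 0.131 and 0.0304). S100a7a, the mouse relative of psoriasin, stayed at or below 0.636 and S100g at or below 0.318, while S100a5 and S100b were listed at 0 throughout. Of these 7 genes, 3 were tested and 1 rose, beside 35.5% of all genes tested. All 3 reached 0.5 in every DKSFM library but not in every KSFM-Ca2+ library. They passed the filter through DKSFM, so only a rise could be seen for them.

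**Figure D2:**
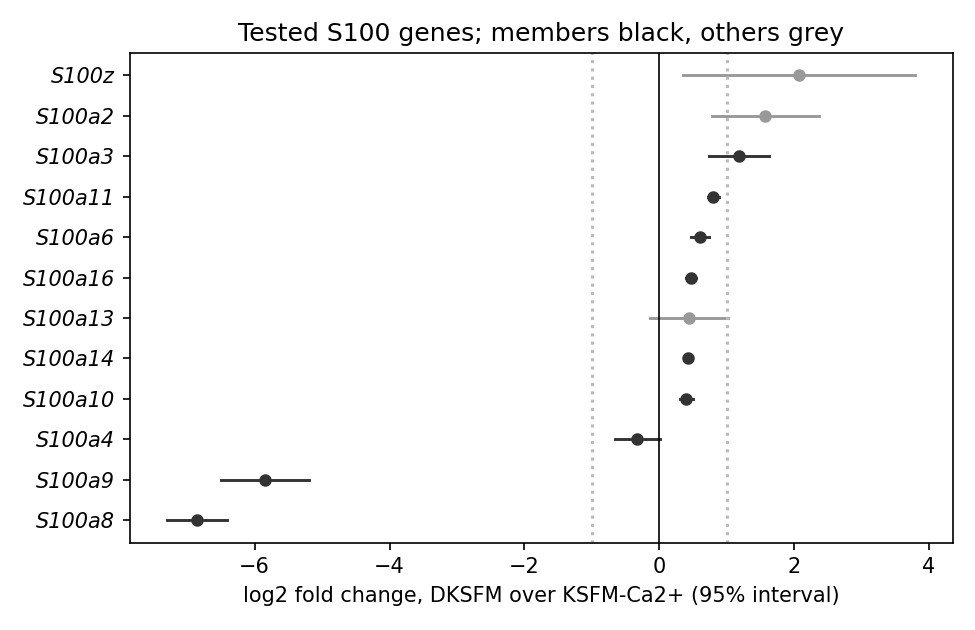
Log2 fold change of DKSFM over KSFM-Ca2+ (points) with its 95% interval (lines) for the 12 tested S100 genes, members in black and other S100 genes in grey. Dotted lines mark 2-fold. S100a8 at -6.86 and S100a9 at -5.85 lie far from the other members, which range from -0.33 for S100a4 to 1.18 for S100a3.

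In the order of mean levels, KSFM-Ca2+ cells had S100a11 at 2660 ± 94.3 (SD, n = 3), S100a6 at 2007 ± 174, S100a14 at 1943 ± 38.8, S100a10 at 1884 ± 82.8 and S100a16 at 1242 ± 29.5. Here S100a6 overlapped S100a14, and S100a14 overlapped S100a10, so these 3 were not in a clear order. Below them stood S100a8 at 180.7 ± 20.7, S100a9 at 108.5 ± 10.8, S100a3 at 10.5 ± 3.27 and S100a4 at 7.27 ± 0.959, with overlap between S100a3 and S100a4 only. In DKSFM cells the order began with S100a11 at 4643 ± 143, S100a6 at 3040 ± 36.7, S100a14 at 2607 ± 30.0, S100a10 at 2490 ± 83.9 and S100a16 at 1726 ± 52.6. Of these, S100a14 and S100a10 overlapped. Then came S100a3 at 23.4 ± 2.68, S100a4 at 5.81 ± 0.986, S100a9 at 1.91 ± 0.850 and S100a8 at 1.50 ± 0.471, where S100a9 and S100a8 overlapped. The alarm pair thus passed from a place above S100a3 and S100a4 to one below them. S100a11 ranked 40 among all genes listed in KSFM-Ca2+ and 16 in DKSFM.

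The members together made up 0.807%, 0.794% and 0.845% of the coverage listed over all genes in KSFM-Ca2+ and 1.18%, 1.16% and 1.16% in DKSFM. The share was higher in each DKSFM library. Within the sum of the members, S100a11 went from a mean of 26.5% in KSFM-Ca2+ to 31.9% in DKSFM, without overlap. S100a14 and S100a10 went from 19.4% to 17.9% and from 18.8% to 17.1%, also without overlap, although both rose in level. The shares of S100a6, with means of 20.0% and 20.9%, and of S100a16, with 12.4% and 11.9%, overlapped between the lines. S100a8 and S100a9 gave 1.80% and 1.08% of the sum in KSFM-Ca2+ and 0.0103% and 0.0131% in DKSFM.

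All 10 members lie on chromosome 3 (GRCm38.p6, RefSeq). S100a1, S100a14, S100a16, S100a3, S100a4, S100a6, S100a8 and S100a9 fall within 185 kb (chr3:90511034-90695721), and S100a11 and S100a10 within 44 kb (chr3:93520496-93564645), 2825 kb further on. Genes that are not S100 genes and lie within 250 kb of a member numbered 18, of which 11 were tested. Of these 11, 9 rose by limma, 4 of them by at least 2-fold, and none fell at an adjusted p under 0.01, with 1 lower at an unadjusted p under 0.05. Over all genes tested, 35.5% rose, 13.2% rose by at least 2-fold and 37.1% fell. The median log2 fold change of the 11 neighbours was 0.47. The 4 were Crtc2, a coactivator of CREB, the fatty acid transporter Slc27a3, and Tchh and Rptn, which encode S100-fused proteins of the hair follicle and epidermis, the last listed at 0 in KSFM-Ca2+. Directly before the first run of members, Chtop, which encodes a chromatin and RNA export protein, was at 446, 444 and 454 in KSFM-Ca2+ and at 559, 561 and 538 in DKSFM. Its log2 fold change of 0.30 (SE 0.027; limma adjusted p = 1.34e-05) was below those of the abundant members. Pglyrp4, directly behind S100a9, was below the filter, and Tchhl1 and Tdpoz2, on either side of the second run, were listed at 0.

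The shift reached far beyond the family. In stretches of 10 Mb counted from the S100a8 start, a division chosen after the values were seen, the 156 tested genes of the central stretch that are not S100 genes had a median log2 fold change of 0.51, and 72.4% of them were above 0. The next stretches, up to 25 Mb behind S100a8, had medians of 0.59 over 78 genes and 0.60 over 47 genes. From 25 to 35 Mb behind it the median was -0.00022 over 38 genes, and in the 4 stretches beyond that it was between 0.17 and 0.31. The 170 tested genes on the other side, from the start of the chromosome to 5 Mb before S100a8, had a median of -0.29. S100a6, S100a10, S100a11, S100a14 and S100a16, with log2 fold changes from 0.40 to 0.80, lay around the median of their surroundings, and S100a8 and S100a9 went the opposite way to it. The median of a whole chromosome ranged from -0.43 on chromosome 8 to 0.30 on chromosome 6, with 0.22 on chromosome 3. These RNA values do not give the number of DNA copies of these stretches, so its part in the regional medians, and in the rises of the 5 abundant members, was not tested.

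**Figure D3:**
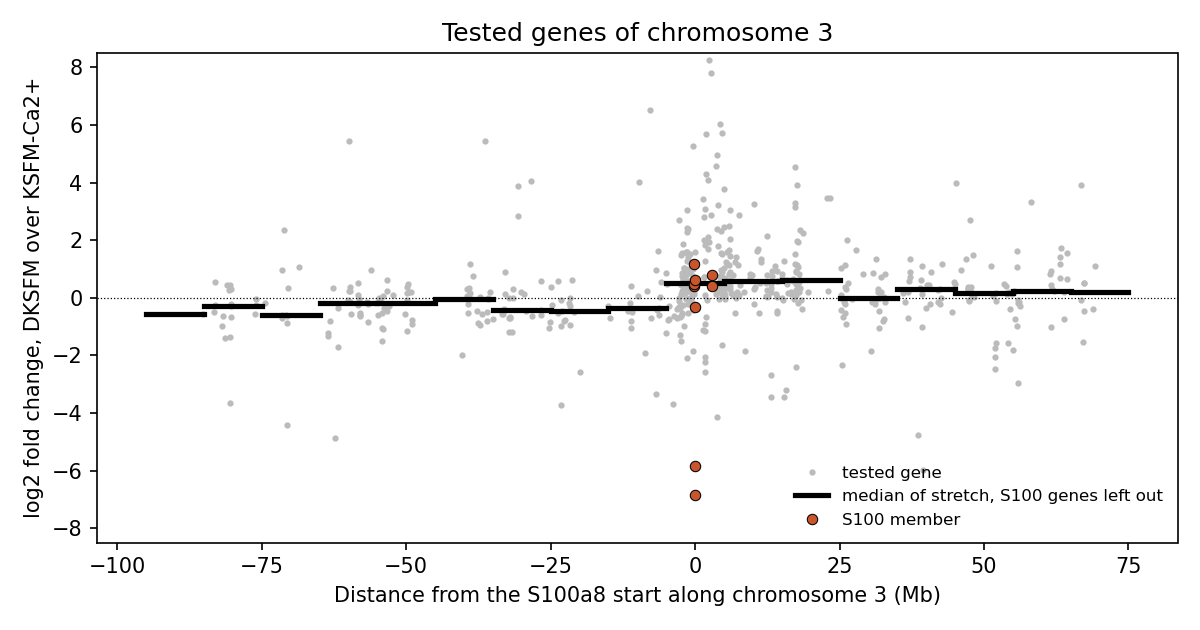
Log2 fold change of DKSFM over KSFM-Ca2+ of each tested gene on chromosome 3 (grey), against its distance in Mb from the S100a8 start. S100 members are orange and black lines give the median of each 10 Mb stretch without S100 genes. Medians are below 0 in every stretch before the central one, the first of which holds 1 gene, between 0.51 and 0.60 in the central stretch and both that follow, near 0 in the next one, and between 0.17 and 0.31 in the last 4.

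Among 14 partners and targets of S100 proteins, all tested, 5 rose and 7 fell at an adjusted p under 0.01, 2 of the falls at least 2-fold. Of all genes tested, 35.5% rose and 37.1% fell, and 10.5% fell by at least 2-fold. The median log2 fold change of the 14 was -0.18. Anxa1 was at 3893, 3776 and 4226 in KSFM-Ca2+ and at 4730, 4872 and 4720 in DKSFM, a log2 fold change of 0.27 (SE 0.044; limma adjusted p = 5.26e-04). Anxa2 had a log2 fold change of 0.16 (SE 0.040; limma adjusted p = 0.0071). Both annexins thus rose less than the S100 genes they pair with. Anxa1 lies on chromosome 19 and Anxa2 on chromosome 9, while S100a11 and S100a10 lie in the chromosome 3 stretch with a median of 0.51. The part of that regional shift in the ratios to the annexins was not tested. The other 3 rises were those of Nucb1, Ppp5c and Iqgap1. The 2 falls past 2-fold were those of Anxa6, another membrane-binding annexin, with a log2 fold change of -1.37 (SE 0.069; limma adjusted p = 4.57e-07), and of Sugt1, a chaperone adaptor that binds S100a6, with -1.15 (SE 0.052; limma adjusted p = 2.27e-07).

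Of 10 receptors and binding proteins at the cell surface or in endosomes, 9 were tested, 6 rose, 3 of them by at least 2-fold, and 1 fell. Their median log2 fold change was 0.48. Beside these counts, 35.5% of all genes tested rose, 13.2% by at least 2-fold, and 37.1% fell. Emb, the immunoglobulin-family protein embigin, was listed at 0 in all 3 KSFM-Ca2+ libraries and was at 239, 256 and 235 in DKSFM. It was thus seen in the DKSFM line alone and passed the filter through that line only. Its relative Bsg (basigin), which binds S100a9, was at 721, 733 and 768 in KSFM-Ca2+ and at 1053, 1029 and 1024 in DKSFM. Nptn, the third of these relatives and known to bind S100a8, was between 531 and 557 in all libraries and did not pass the test (limma adjusted p = 0.494). Cd36, a fatty acid and lipid receptor that binds the S100a8 and S100a9 complex, went from 0.991, 1.38 and 1.30 to 15.3, 17.6 and 13.4, a log2 fold change of 3.55 (SE 0.15; limma adjusted p = 1.55e-07). The third rise past 2-fold was that of Ager, the receptor for advanced glycation end products, with 1.14, and the gene that fell was Tlr4, a pattern receptor that binds the S100a8 and S100a9 complex, with -0.56.

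S100a10 with annexin A2 holds plasminogen and its activator at the cell surface. Of the 5 genes given here for that system, 4 were tested, and 3 fell and 1 rose, all by at least 2-fold, with a median log2 fold change of -1.95. Falls of at least 2-fold were seen in 10.5% of all genes tested, and such rises in 13.2%. Plau, the urokinase activator, was at 160.3, 159.8 and 171.6 in KSFM-Ca2+ and at 39.3, 38.6 and 38.1 in DKSFM, a log2 fold change of -2.08 (SE 0.038; limma adjusted p = 2.38e-09). Its receptor Plaur went from 26.8, 26.3 and 28.9 to 2.87, 3.50 and 4.13. Serpinb2, an inhibitor of urokinase, had a log2 fold change of -1.82 (SE 0.082; limma adjusted p = 2.38e-07). The gene that rose was Plat, the tissue-type activator, with 1.41. Plat reached 0.5 in every DKSFM library but not in every KSFM-Ca2+ library. It passed the filter through DKSFM, so only a rise could be seen for it. Its values rest on about 9 to 50 reads a library. Urokinase, its receptor and Serpinb2 were thus lower in DKSFM, while S100a10 and Anxa2 were higher.

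Other calcium sensors with EF-hands were given by 12 genes, of which 11 were tested, 4 rose, 3 of them by at least 2-fold, and 4 fell by less than that. Rises and falls were about as common over all genes tested, at 35.5% and 37.1%, with 13.2% rising by at least 2-fold. The median log2 fold change of the 11 was -0.042. Calm2, a calmodulin gene and the most abundant of the list, was at 1786, 1801 and 1857 in KSFM-Ca2+ and at 1279, 1313 and 1270 in DKSFM, a log2 fold change of -0.50 (SE 0.028; limma adjusted p = 7.96e-07). Calm4, a calmodulin-like protein of the differentiating epidermis, was at 0.457, 0.494 and 0.236 in KSFM-Ca2+ and at 27.9, 43.5 and 26.7 in DKSFM. Calml3, another epithelial calmodulin-like gene, was listed at 0 in KSFM-Ca2+ and was at 8.92, 12.2 and 6.89 in DKSFM. The third rise past 2-fold was that of Chp1, an exchanger-binding protein, with 1.38. Calm4 and Calml3 reached the level needed for testing in DKSFM alone, so only a rise could be seen for them.

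Of 13 transcription regulators linked to S100a8 and S100a9, 12 were tested, 9 rose, 5 of them by at least 2-fold, and 1 fell, with a median log2 fold change of 0.87. Cebpa, a C/EBP factor of differentiating keratinocytes and myeloid cells, was at 87.6, 78.5 and 78.5 in KSFM-Ca2+ and at 489, 525 and 516 in DKSFM. Cebpb, its relative, was the most abundant of the list in KSFM-Ca2+ and stood below Cebpa in every DKSFM library. It was between 380.3 and 464 in all libraries and did not pass the test (limma adjusted p = 0.439). Jun rose with a log2 fold change of 2.04 (SE 0.053) and Stat3 with 0.79 (SE 0.031), and Junb was the gene that fell, with -0.81 (SE 0.036). The other rises past 2-fold were those of Klf4, Cebpd and Grhl3, with 1.75, 1.46 and 1.22. Over all genes tested, 35.5% rose, 13.2% by at least 2-fold, and 37.1% fell.

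Of 11 cytokine and receptor genes linked to the induction of S100a8 and S100a9, 9 were listed and 7 tested. Of these, 4 rose and 3 fell, 2 of each by at least 2-fold, with a median log2 fold change of 0.57. Among all genes tested, 35.5% rose and 37.1% fell, 13.2% and 10.5% by at least 2-fold. Il1a, an epidermal alarm cytokine, was at 100.5, 105.2 and 120.5 in KSFM-Ca2+ and at 0.425, 0.600 and 0.212 in DKSFM, a log2 fold change of -7.80 (SE 0.26; limma adjusted p = 4.59e-08). Tnf, a central inflammatory cytokine, was at 11.7, 12.0 and 15.3 in KSFM-Ca2+ and listed at 0 in every DKSFM library. Both ligands passed the filter through the KSFM-Ca2+ libraries, so only a fall could be seen for them. Il1b and Il6 were below the filter. Of the receptors, Osmr, which binds oncostatin M, went from 14.9, 14.3 and 14.6 to 57.1, 57.8 and 60.5, and Il17rc, a subunit of the interleukin-17 receptor, rose with a log2 fold change of 0.82 (SE 0.046). Il22ra1, of the interleukin-22 receptor, and Il17ra rose by 1.53 and 0.57. The receptor of interleukin 1, Il1r1, fell with -0.87 (SE 0.057).

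Over the 6 libraries, the genes closest to S100a8 in centred log2 level were Egln3, Cxcl5 and Tnf, by the root mean square difference. Egln3, a prolyl hydroxylase of the oxygen response, differed by 0.13 and had a mean of 48.4 ± 1.11 (SD, n = 3) in KSFM-Ca2+ and 0.350 ± 0.168 in DKSFM. Cxcl5, a chemokine that attracts neutrophils, differed by 0.24 and went from 354 ± 33.6 to 2.81 ± 0.344. Tnf differed by 0.26. With both lines so far apart, this measure mostly ranks genes by the size of their fall.

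**Figure D4:**
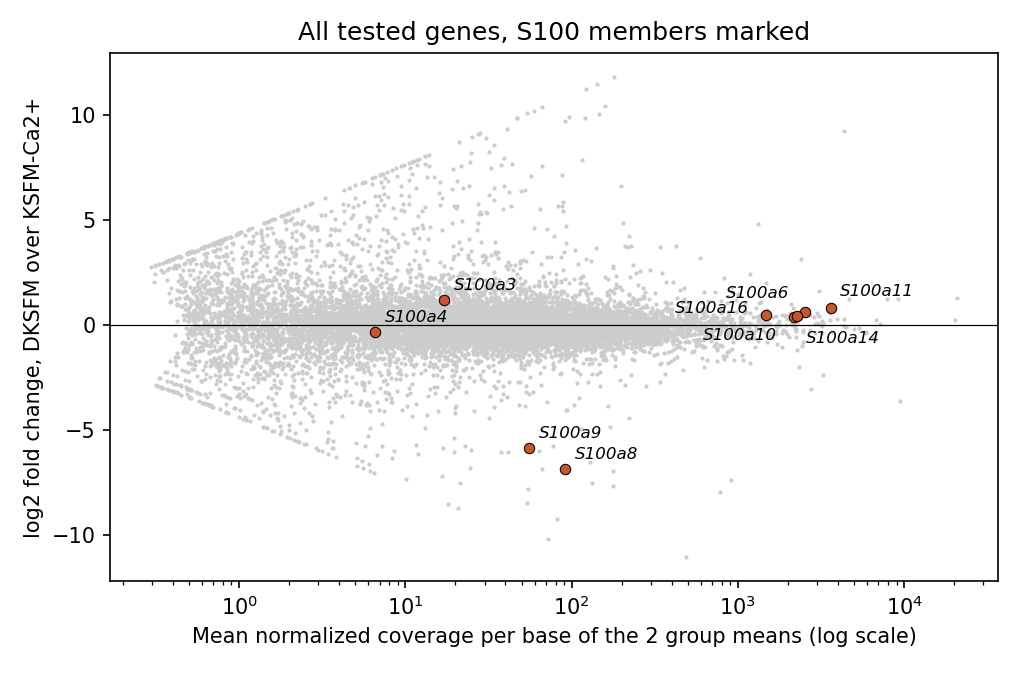
Log2 fold change of DKSFM over KSFM-Ca2+ against the mean normalized coverage of both lines (log scale) for the 12409 tested genes (grey), with the 9 tested S100 members in orange. The straight outer edges are genes listed at or near 0 in 1 line, where the added 0.1 sets the size. The 5 abundant members sit at the right, between 0.40 and 0.80, and S100a8 and S100a9 at -6.86 and -5.85.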

How the data were processed

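RNA from 3 KSFM-Ca2+ and 3 DKSFM samples was sequenced as directional poly(A) libraries with single reads of 85 bases. The authors' processing notes name bcl2fastq, STAR, DESeq2 and the mm10 build, and the authors' methods a STAR alignment to RefSeq genes with quantification by Salmon. The deposited values are coverage per base of each gene to 1 decimal, not read counts, so no count model was run. How the coverage values were derived from these steps, and why the files of 4 samples carry the word combined, is not given in the sources used here.

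Libraries were scaled by a trimmed mean of M values (30% and 5% trimmed). Genes with normalized coverage of at least 0.5 in 3 libraries (12409 of 24982) were fitted with limma 3.58.1 in R 4.3.3, with an intensity trend, on log2(value + 0.1). P-values were adjusted by Benjamini-Hochberg over all of them. Ratios were compared by two-sided exact permutation tests in Python 3.11.15. The code was tested on simulated data. Approximate reads are coverage times the median coding transcript length (GENCODE M21) over 85 bases. Positions and promoters are RefSeq, GRCm38.p6, and 24417 symbols matched.

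The members and gene lists were chosen with earlier results of these data known. From each list at most the 4 tested genes with the highest mean level and the 2 with the largest change were named, and beyond it, after their values were seen, markers listed at 0 and genes that make up a small count. Of the lists, 3 genes are not reported here and were left out of the list counts. The neighbours within 250 kb were counted and those flanking each run named, and the 3 genes most like S100a8 were named. Alternatives changed the scaling (relative log expression, totals, quantile), pseudocount, filter, trend, replicate block, threshold and the libraries used.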

Additional observations from a re-analysis of the deposited data

How the results depend on the processing

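S100a8 and S100a9 stayed called as lower by limma in all 17 alternatives, with log2 fold changes from -7.07 to -6.19 and from -6.14 to -5.27. The rises of S100a6, S100a10, S100a11, S100a14 and S100a16 passed the adjusted p in all 17 and stayed under 2-fold. S100a4 passed it in 0 of 17, with log2 fold changes from -0.53 to -0.17 (limma adjusted p between 0.0223 and 0.226). S100a3 passed 2-fold in 16 of 17. In the 4 libraries with combined in their file names, which hold 1 KSFM-Ca2+ library assumed to vary like the DKSFM libraries, its log2 fold change was 0.70 and 0 members were called higher. With a filter on every library, which tests 11112 genes and drops those near 0 in 1 line, 1032 genes were called higher in place of 1636. Scaling moved the median of all genes to between -0.045 and 0.011. Quantile normalization called 1461 genes higher and 1486 lower, so the excess of higher calls turned into a small excess of lower ones.

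With a replicate block, 1641 genes were called higher and 1304 lower, against 1636 and 1307, and 1 and 2 members, as without it. Deviations of samples with the same number correlated at -0.0051, 0.024 and -0.0061. These values show no pairing by number, but with so few libraries they cannot exclude one. The ratios kept their direction without any 1 library and with 0.1 added. That of S100a8 to S100a9 changed by between -1.35 and -0.77 without 1 library.

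Depth limits S100a8 and S100a9 in DKSFM, and S100a2, S100a13 and S100z in both lines, to at most about 16 reads a library. These RNA values hold no measure of the DNA copies of the chromosome 3 stretches or of S100 protein, and 3 libraries a line give an exact p of at least 0.1.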
